A study of Bos taurus with 12 samples.

Results

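PLEKHA2 and 6 other genes of PI3K phosphoinositide signalling, PLEKHA1, PIK3CD, PIK3R1, INPP5D, INPP4A and INPP4B, were described in the mammary gland (MG) of early lactation cows fed 2 diets. The members were taken by symbol, through the RefSeq accession that the array design gives with each probe. This matched 6 of the 7 genes to 13 of the 43653 probes, among 12639 genes that could be named in all, and INPP4B is not analysed here. PLEKHA2 was selected on its measured log2 difference between the diets, so that this difference is given below as a description without a test. The other members were added for their place in the same pathway.

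The samples were mammary biopsies of 12 multiparous Holstein cows, 6 in the control group (CONT) and 6 in the restricted group (REST), hybridized to 1 one-color Agilent bovine array per cow. CONT cows stayed on a lactation diet eaten freely from 24 ± 3 days in milk. In REST, barley straw made up 48% of the dry matter offered over 4 days, which lowered the nutrient density of the feed. Every cow of both groups also received 50 µg of lipopolysaccharide (LPS), the endotoxin of Gram-negative bacteria, in 1 rear gland of the udder on day 3, and the biopsy was taken 24 h later. All values below are therefore from challenged tissue, and the comparison is between diets within that challenge.

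PI3K is a lipid kinase made of a catalytic and a regulatory subunit, and its product at the inner face of the plasma membrane is the trisphosphate PIP3. INPP5D (SHIP1) takes the 5-phosphate off PIP3, which leaves a bisphosphate, and the enzymes INPP4A and INPP4B take the 4-phosphate off that bisphosphate. PLEKHA1 and PLEKHA2, also called TAPP1 and TAPP2, are adaptors whose pleckstrin homology domain binds this bisphosphate, and they are best known from B cells.

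Values are log2 intensities minus the 75th percentile of the same array, so that a negative value lies below that percentile. A probe was taken as measured on an array where the image software called it well above background. This held on all 12 arrays for 6 of the 13 member probes, 1 for each matched gene, on some of the arrays for 6 further probes, and on no array for 1 INPP4A probe. Brightness was used to number the probes of a gene, to choose the one described first and to name the probes that weigh most in a sum. No level of one gene was otherwise compared with that of another. The 75th percentile was at an intensity of 577.15 to 1183.93 in CONT (median 837.42) and of 386.9 to 1082.01 in REST (median 652.62). The arrays came from 3 slides, of which slide 1 held 3 CONT arrays and 1 REST array, slide 2 held 1 CONT and 3 REST, and slide 3 held 2 of each. Negative control spots were brighter on slide 1 than on the other slides (37.73 to 58.19 against 17.43 to 19.96). All 8 matched markers of mammary epithelium and all 8 general leukocyte markers were well above background on every array. In such bulk tissue, fewer cells of a type and less RNA per cell cannot be told apart.

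PLEKHA2, the adaptor TAPP2, was higher in every REST cow than in any CONT cow. Its probe (NM_001035383) had a log2 signal of -3.46 at the lowest, -2.72 at the median and -2.52 at the highest in CONT, and of -2.26, -2.12 and -1.55 in REST. The lowest REST cow, 1015, lay just above the highest CONT cow, 0015. The mean was -2.83 ± 0.36 in CONT and -2.04 ± 0.27 in REST (SD over 6 cows each), a log2 difference of 0.80 (standard error 0.20) or a fold change (FC) of 1.74. The groups did not overlap in 0.128% of all probes.

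**Figure D1:**
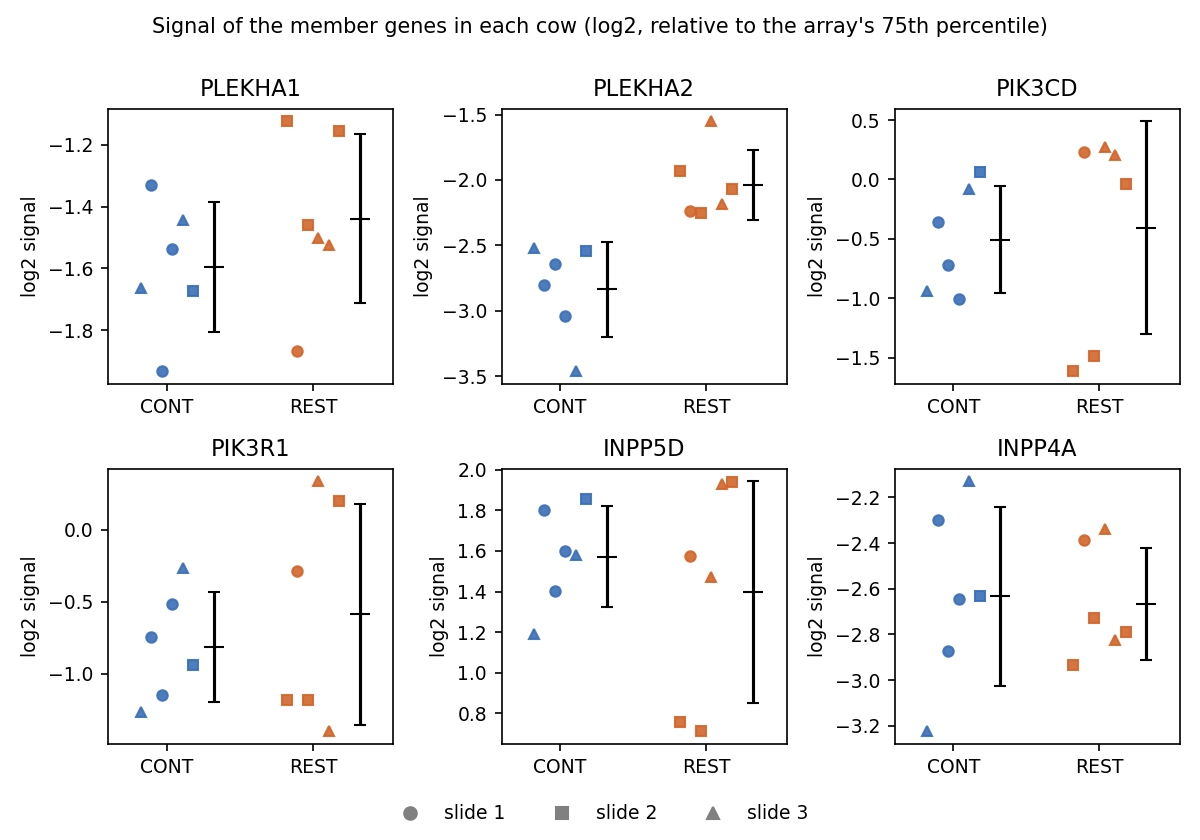
Log2 signal relative to the array's 75th percentile (vertical axis) of the 6 matched member genes in each CONT and REST cow, for the probe well above background on all 12 arrays. Each symbol is 1 cow, its shape gives the slide, and the bar beside each group is the mean ± SD. The groups are apart for PLEKHA2, with 6 of 6 REST cows above every CONT cow, and overlap for the other 5 genes.

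The separation was not present in the deposited intensities before the shift between arrays. Before the shift, the deposited intensity of the PLEKHA2 probe was 100.6 to 139.6 in CONT (median 121.4) and 101.4 to 251.1 in REST (median 157.1), so that the groups overlapped and 3 of 6 REST cows were above every CONT cow. The mean log2 difference in these intensities was 0.39, while the mean log2 of the 75th percentile differed by -0.41, and both enter the value of 0.80. The local background around the PLEKHA2 spots was 41.0 to 64.0 in CONT and 38.0 to 75.5 in REST. With normexp background correction, which started from the median spot signals and added an offset of 50, the log2 difference was 0.44 (standard error 0.20), 2 of 6 REST cows were above every CONT cow, and the groups overlapped. With quantile normalization 6 of 6 REST cows remained above every CONT cow.

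The sign of the PLEKHA2 difference was the same in every setting that was run. As the shifted values of the groups did not overlap, it could not turn within slides, with slide as a block, or without single cows or slide 1. The difference was 0.77 with slide as a block, 0.85 without the arrays of slide 1, and 0.67 to 0.86 when each cow was left out in turn. Within slides, it was 0.59 on slide 1, 0.46 on slide 2 and 1.13 on slide 3, where a group had 1 to 3 cows. With the summed level of the leukocyte markers as a covariate it was 0.80 (standard error 0.20).

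**Figure D2:**
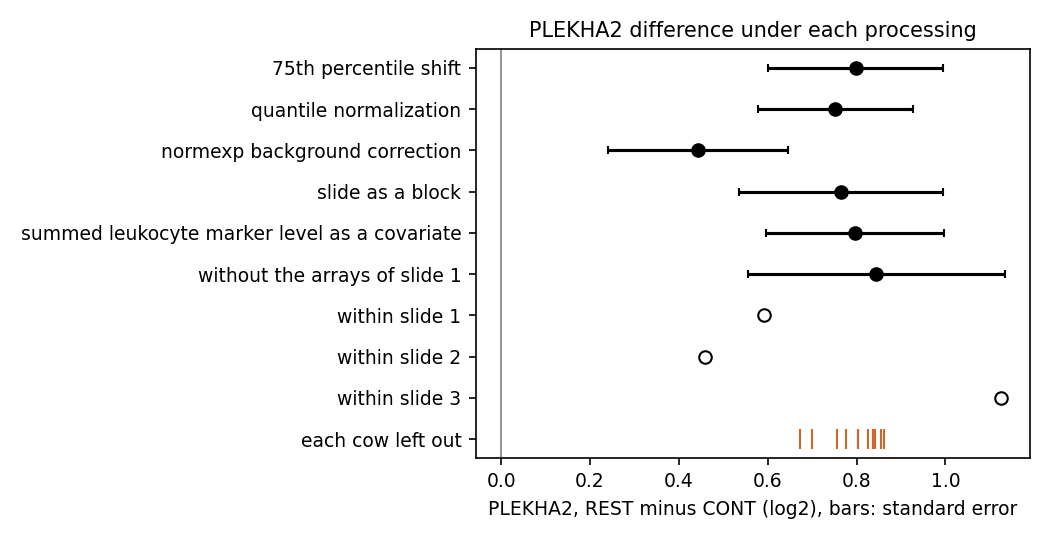
Log2 difference of PLEKHA2 between REST and CONT (horizontal axis) under each way of processing, with its standard error as the bar. Open circles are differences of means within 1 slide, without an error, and the ticks at the bottom are the values with each of the 12 cows left out. The points lie to the right of 0 in every row, with 0.44 for normexp background correction and 0.46 for slide 2 the nearest to it. For the slide rows and the ticks this side follows from groups that did not overlap.

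PLEKHA1, the other adaptor (TAPP1), did not show the separation seen in PLEKHA2. Its log2 signal was -1.93 to -1.33 in CONT (median -1.60) and -1.87 to -1.12 in REST (median -1.48). The highest values were those of REST cows 0049 and 7043, and the lowest were those of CONT cow 1024 and REST cow 0078, so that the groups overlapped. The mean was -1.60 ± 0.21 in CONT and -1.44 ± 0.27 in REST (SD over 6 cows each). The log2 difference was 0.16, with a 95% confidence interval of -0.20 to 0.52 (limma, Westfall-Young adjusted p = 1). Within slides the PLEKHA1 difference was -0.27, 0.43 and 0.04 on slides 1, 2 and 3. The difference in the response of the 2 adaptors was not tested, because PLEKHA2 was chosen for its own.

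The catalytic subunit PIK3CD, the delta isoform of PI3K that is best known from leukocytes, differed more between cows than between diets. On its brightest probe (NM_001205548), the log2 signal was -1.003 to 0.062 in CONT (median -0.54) and -1.62 to 0.28 in REST (median 0.082). In REST, cows 0049 and 1015 were at -1.62 and -1.48, below every CONT cow, while the other 4 were between -0.04 and 0.28. The mean was -0.51 ± 0.45 in CONT and -0.40 ± 0.89 in REST (SD over 6 cows each), a log2 difference of 0.10 with a 95% interval of -0.72 to 0.93 (limma, Westfall-Young adjusted p = 1). The sign rested on single cows and on slides. It turned without REST cow 0078, 1018 or 1058 (lowest value -0.034) and without the arrays of slide 1 (-0.21), and within slides the difference was 0.92, -1.11 and 0.75 on slides 1, 2 and 3. The other 3 PIK3CD probes were dimmer, with 5, 2 and 2 of the CONT arrays and 6, 5 and 3 of the REST arrays well above background. They differed by 0.31 (standard error 0.27), 0.094 (standard error 0.39) and 0.17 (standard error 0.55). The probe at 0.094 moved to 0.51 (standard error 0.22) with slide as a block, and was at 0.51, 0.63 and 0.43 within slides 1, 2 and 3, while with normexp it was at -0.083.

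PIK3R1, the regulatory subunit p85 alpha that stabilizes the catalytic subunit, was spread widely in REST. Its log2 signal (NM_174575) was -1.26 to -0.27 in CONT (median -0.84) and -1.40 to 0.34 in REST (median -0.74). REST held both the lowest cow, 1058, and the 2 highest, 1018 and 7043. The mean was -0.81 ± 0.38 in CONT and -0.59 ± 0.77 in REST (SD over 6 cows each), a log2 difference of 0.23 with a 95% interval of -0.49 to 0.94 (limma, Westfall-Young adjusted p = 1). The larger SD of PIK3R1, PIK3CD and INPP5D in REST is given as a value, and a difference in spread was not tested.

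Among the phosphatases, INPP5D (NM_001101882) had a log2 signal of 1.19 to 1.86 in CONT (median 1.59) and of 0.71 to 1.94 in REST (median 1.52) on its brightest probe. As for PIK3CD, the lowest values were those of REST cows 0049 and 1015, at 0.76 and 0.71, and the other 4 REST cows were between 1.47 and 1.94. The mean was 1.57 ± 0.25 in CONT and 1.40 ± 0.55 in REST (SD over 6 cows each), a log2 difference of -0.17 with a 95% interval of -0.70 to 0.35 (limma, Westfall-Young adjusted p = 1). Within slides it was -0.026, -0.72 and 0.31. Its other probe passed the background on only 1 array of each group. The log2 difference of that probe, 0.057 (standard error 0.39), therefore rests mostly on values not above background.

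INPP4A (NM_001206848), the 4-phosphatase that could be measured, had nearly equal means in both diets. Its brightest probe was at -3.22 to -2.13 in CONT (median -2.64) and at -2.93 to -2.34 in REST (median -2.76), and the REST values lay inside the range of CONT. The mean was -2.63 ± 0.39 in CONT and -2.67 ± 0.25 in REST (SD over 6 cows each). The log2 difference was -0.034 with a 95% interval of -0.47 to 0.40 (limma, Westfall-Young adjusted p = 1), and with slide as a block it was 0.047. Of the other INPP4A probes, the second was well above background on 3 arrays of each group and differed by 0.11 (standard error 0.29), and the third reached that level on 2 and 3 arrays and differed by 0.38 (standard error 0.36). The remaining probe did not reach that level on the 12 arrays, and its FC is left out.

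**Figure D3:**
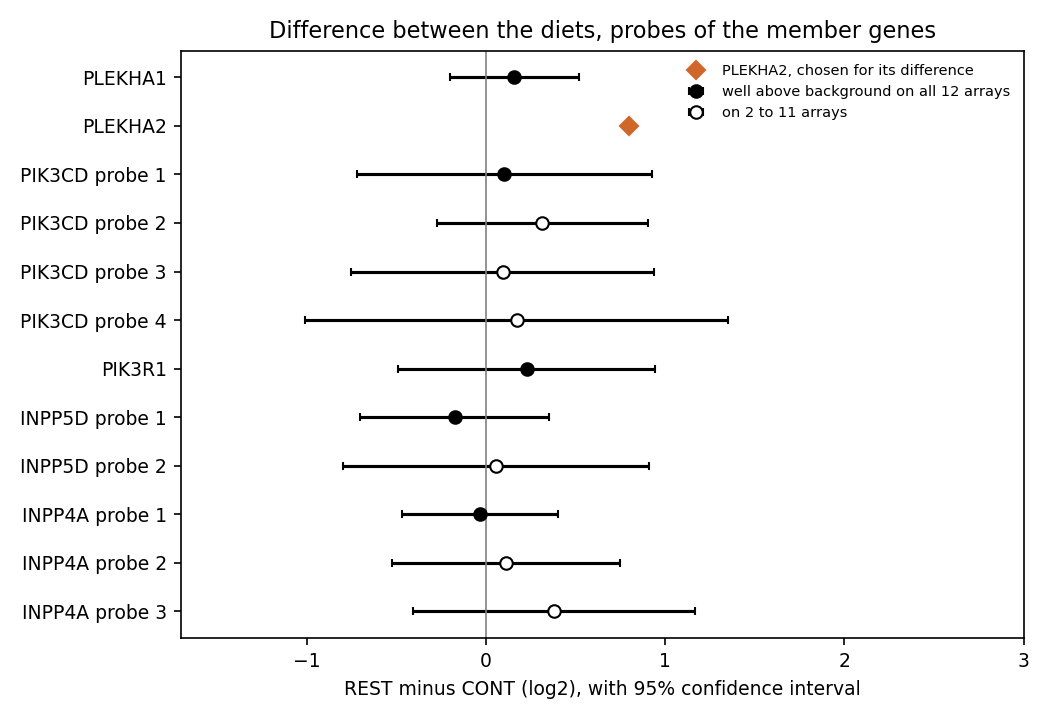
Log2 difference between REST and CONT (horizontal axis) of the 12 member probes that were well above background on at least 1 array, with the 95% confidence interval as the bar. Filled circles are probes well above background on all 12 arrays and open circles are probes so on 2 to 11 arrays. PLEKHA2 was chosen for its difference and is drawn as a diamond without an interval, and the intervals of the other 11 probes include 0.

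Over the 12 probes of the members other than PLEKHA2, 0 had an unadjusted p under 0.05, against 2.62% of all 43653 probes. Groups that did not overlap were found for 0 of the 12, against 0.128% of all probes. With slide as a block, 1 of the 12, the third PIK3CD probe, had an unadjusted p under 0.05 (limma), against 1217 of all 43653 probes. A total of 9 of the 12 had a higher mean in REST, and 3 a lower one, with a median log2 difference of 0.11, while 46.1% of all probes had a higher mean in REST and their median was -0.023. The count was 9 of 12 with quantile normalization (median 0.14), 4 with normexp (median -0.047) and 7 without the arrays of slide 1. Before the shift, which adds the same value to every probe of an array, it was 0 of 12. With the filter on dim probes, 6 of these probes were kept, 4 with a higher mean in REST and 2 with a lower one (median 0.13). Probes of 1 gene share their target and are not independent. No probe of the array passed 0.05 in limma after adjustment, be it Westfall-Young (0%) or Benjamini-Hochberg (0%).

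The brightest PIK3CD and INPP5D probes were higher in cows with more leukocyte marker signal. The summed level of 8 genes of leukocytes in general (PTPRC, CORO1A, LCP1, ITGB2, TYROBP, LAPTM5, CD53 and CD37) was 34.84 to 88.21 in CONT (median 50.1) and 20.05 to 93.05 in REST (median 62.56), in units of the array's 75th percentile. It was lowest in REST cows 0049 (20.05) and 1015 (31.06), the same cows that were lowest for PIK3CD and INPP5D. After each diet was centred on its mean, PIK3CD had r = 0.93 with the log2 of this sum over 12 cows (permutation test, p = 0.00029, Benjamini-Hochberg p = 0.00348 over 12 relations; rho = 0.92, p = 0.00041, Benjamini-Hochberg p = 0.00492). Without cows 1015 and 0049, which lay farthest from the median of the sum, r was 0.87, and over 16 alternatives it was 0.872 to 0.961 and kept its call. Within CONT r was 0.86 and within REST it was 0.95. Of the dimmer PIK3CD probes, the second had r = 0.50, the third r = -0.15 and the fourth r = 0.79 with the same sum.

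INPP5D had r = 0.82 with the leukocyte sum (permutation test, p = 0.00694, Benjamini-Hochberg p = 0.0278; rho = 0.78, p = 0.0123, Benjamini-Hochberg p = 0.0370). It was 0.65 without cows 1015 and 0049, 0.58 within CONT and 0.90 within REST, and the dimmer INPP5D probe had r = 0.28. The relation of INPP5D kept its sign in 16 alternatives (0.722 to 0.864), but lost its call without CONT cow 9040 or 0015 or REST cow 0049, 1015 or 1058, with Benjamini-Hochberg p-values of 0.0525 to 0.0726 (permutation test, 11 cows). PLEKHA2 had r = 0.026 with the leukocyte sum (permutation test, p = 0.936, Benjamini-Hochberg p = 0.936; rho = 0.14, p = 0.676). For PLEKHA1, PIK3R1 and INPP4A the values of r were -0.45, 0.29 and 0.36, with Benjamini-Hochberg p-values of 0.329, 0.496 and 0.330 (permutation test, 12 cows). The 12 arrays also differed in overall brightness, and the leukocyte sum had r = 0.66 with the log2 of the 75th percentile by which every value was shifted. With that percentile held constant, r with the leukocyte sum was 0.87 for PIK3CD and 0.72 for INPP5D, and for PLEKHA2 it moved from 0.026 to 0.50 (permutation test, Benjamini-Hochberg p = 0.287). Each slide held 4 arrays, too few for a correlation of its own. These relations were chosen after the values had been seen.

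**Figure D4:**
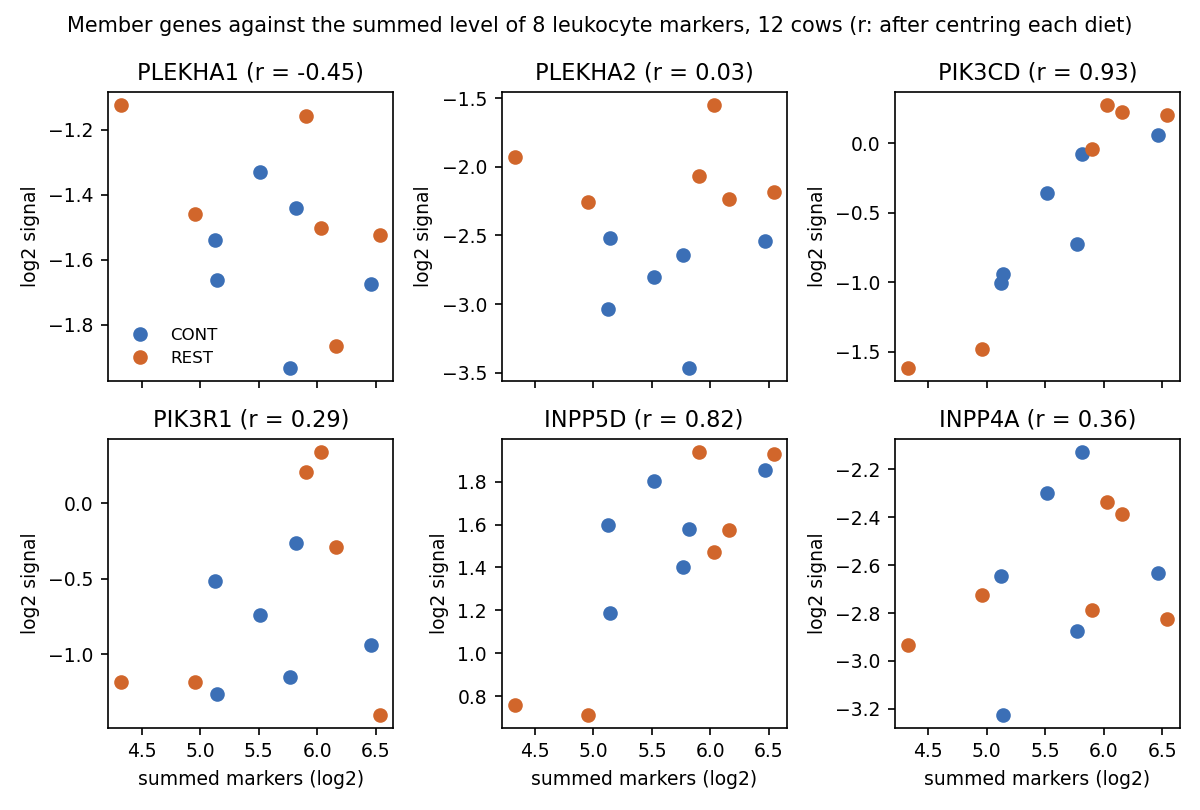
Log2 signal of the 6 matched member genes (vertical axes) against the log2 summed level of 8 leukocyte markers (horizontal axes), with 1 point per cow. PIK3CD (r = 0.93) and INPP5D (r = 0.82, and 0.58 within CONT) are higher where the markers are higher, with REST cows 0049 and 1015 at the lower left. PLEKHA2 had r = 0.03.

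The same 6 genes were set against the summed level of 8 mammary epithelium markers. The sum adds unlogged levels, so that the brightest probes, those of CSN3 and LALBA, weigh most in it (mean log2 signal 9.21 and 8.94 in CONT). INPP4A had r = -0.83 (permutation test, p = 0.00063, Benjamini-Hochberg p = 0.00378; rho = -0.74, p = 0.00614, Benjamini-Hochberg p = 0.0246), and r was -0.72 without REST cow 0078 and CONT cow 8027, the farthest from the median of the sum. It was -0.86 within CONT and -0.90 within REST. PIK3CD had r = -0.77 (permutation test, p = 0.00973, Benjamini-Hochberg p = 0.0292; rho = -0.80, p = 0.00469, Benjamini-Hochberg p = 0.0246), and -0.79 without these 2 cows. The dimmer probes had r of -0.30, -0.069 and 0.27 for INPP4A and of -0.45, -0.018 and -0.67 for PIK3CD. The epithelium sum moved with the brightness of the arrays (r = -0.89 with the log2 of the 75th percentile) and with the leukocyte sum (r = -0.64). With the 75th percentile held constant, r was -0.69 for INPP4A (permutation test, Benjamini-Hochberg p = 0.0768) and -0.46 for PIK3CD (Benjamini-Hochberg p = 0.318), so that neither call was kept. The INPP4A relation also lost its call with normexp (r = -0.43), and that of PIK3CD with normexp (-0.73), with quantile normalization (-0.60) and without CONT cow 0015, 1024 or 8027 or REST cow 1058 (-0.81 to -0.76). For PLEKHA2 r was 0.33, but 0.88 within CONT, -0.25 within REST and -0.29 without cows 0078 and 8027. The other 4 genes, PLEKHA2 included, had Benjamini-Hochberg p-values of 0.129 to 0.412 (permutation test, 12 cows).

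Between cows, no relation of PLEKHA2 with another member passed the threshold over both diets, which with 12 cows does not show that there is none. After centring each diet, r was -0.15 with PLEKHA1, 0.017 with PIK3CD, -0.048 with PIK3R1, -0.062 with INPP5D and -0.40 with INPP4A. All 5 relations had a Benjamini-Hochberg p of 0.956 (permutation test, 12 cows), the values of rho were -0.31 to 0.16, and without REST cow 1018 and CONT cow 8027, the farthest from the median of PLEKHA2, r was -0.51 to 0.033. Within CONT, PIK3R1 was highest where PLEKHA2 was lowest, in cow 8027, with r = -0.93 (exact permutation test, n = 6, p = 0.00417, Benjamini-Hochberg p = 0.0417 over 10 relations; rho = -0.94, p = 0.0167, Benjamini-Hochberg p = 0.167). Within REST, r of the same pair was 0.54 (exact permutation test, n = 6, p = 0.261). The relation in CONT was -0.74 without the 2 farthest cows and -0.23 with normexp, and the difference between the diets was not tested. Cow 8027 also had the highest 75th percentile of the CONT arrays (1183.93). Cow 0015, highest for PLEKHA2 and lowest for PIK3R1 in CONT, had the lowest percentile (577.15). The relation was not examined with that percentile held constant.

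The genes whose pattern over the 12 cows was most like that of PLEKHA2 were sought among 9000 genes well above background on all arrays, after centring each diet. HIGD1B came first (r = 0.90), followed by CCDC85B (0.85), API5, an inhibitor of apoptosis (0.85), CLCN3, a chloride-proton exchanger of endosomes (0.84), and MFAP3 (0.84). In this order of 9000 genes, the members stood at rank 4571 (PIK3CD), 5131 (PIK3R1), 5280 (INPP5D), 6031 (PLEKHA1) and 7868 (INPP4A). HIGD1B differed between the diets by 0.49 (standard error 0.39), MFAP3 by 0.35 (standard error 0.21), CLCN3 by 0.26 (standard error 0.20), CCDC85B by 0.12 (standard error 0.17) and API5 by -0.081 (standard error 0.19).

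Other genes of phosphoinositide signalling were read from 5 lists with 82 genes besides the members, of which 54 were matched to probes. Of these, 41 passed the background limit on every array and 4 on none (MTMR7, GAB3, ADAP1 and CR2). None passed an adjusted p of 0.05, 0 had an unadjusted p under 0.05, against 2.64% of all named genes, and 0 had groups that did not overlap, against 0.15% (limma). With normexp, or without CONT cow 1076, 0015 or 8027, 1 gene had an unadjusted p under 0.05 (limma). In these settings, in the same order, 377, 938, 1504 and 1328 of all 43653 probes did. A higher mean in REST was found for 28 genes and a lower one for 26, so that 51.9% were higher, against 43.5% of all named genes. The median log2 difference was 0.009, against -0.034 for all named genes.

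Of the other PI3K subunits and regulators, 9 of 14 were matched, 6 of them with a higher mean in REST (median 0.086). The gene with the largest difference in this list, among those above background on all arrays as in the lists that follow, was PIK3IP1, a membrane inhibitor of PI3K, at 1.12 ± 0.42 in CONT and 1.56 ± 0.37 in REST (SD over 6 cows each). Its log2 difference was 0.44 (standard error 0.23), and 3 of 6 REST cows were above every CONT cow. The list of phosphatases had 15 of 21 genes matched, 7 of them with a higher mean in REST (median -0.002), and among its genes above background on all arrays the largest difference was that of the myotubularin MTMR2, 0.39 (standard error 0.25). INPP5J, above background on 1 CONT array and no REST array, had the most negative value of the list and is given no FC.

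Proteins that read PI3K lipids, among them the AKT kinases and BTK, had 15 of 29 genes matched. A total of 6 had a higher mean in REST (median -0.061). The largest difference was that of DAPP1, a B cell adaptor with a pleckstrin homology domain like that of the TAPP adaptors, at -0.90 ± 0.75 in CONT and -1.50 ± 0.59 in REST (SD over 6 cows each). This is a log2 difference of -0.60 (standard error 0.36), opposite in sign to that of PLEKHA2, and 2 of 6 REST cows were below every CONT cow. Of the proteins that the TAPP adaptors bind, 5 of 6 were matched, 4 of them with a higher mean in REST (median 0.053), and the largest difference was 0.14 (standard error 0.18) for the syntrophin SNTB2. Genes of the B cell receptor and its coreceptors had 10 of 12 matched and 5 with a higher mean in REST (median -0.016). The largest difference there was -0.31 (standard error 0.44) for FCGR2B, the inhibitory Fc receptor that recruits INPP5D.

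**Figure D5:**
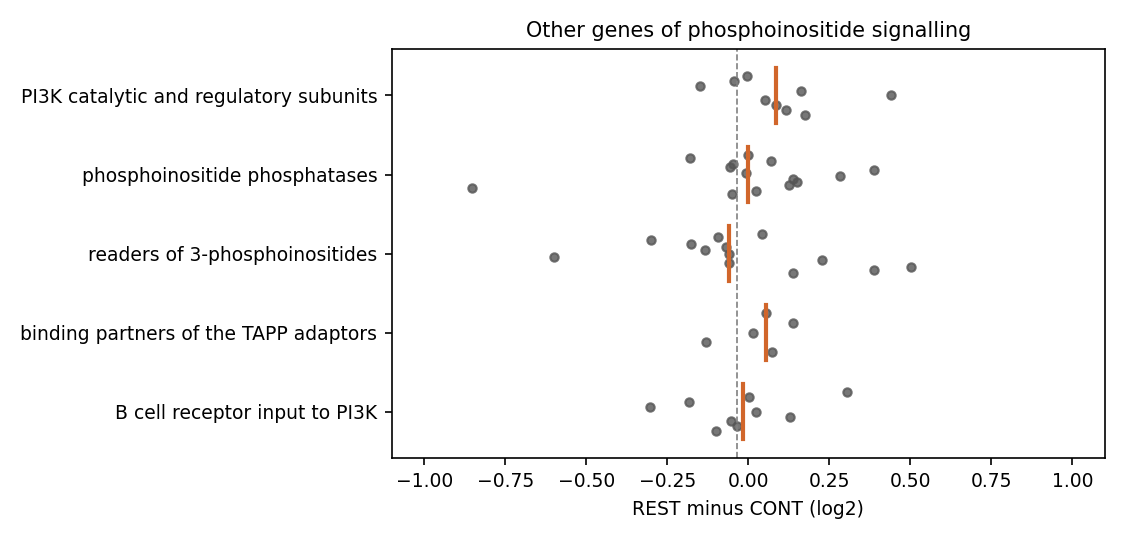
Log2 difference between REST and CONT (horizontal axis) of the other genes of phosphoinositide signalling, by list, without the 4 genes below background on all arrays. Each point is 1 gene, the orange line is the median of the matched genes of the list, and the dashed line is the median of all named genes (-0.034). The list medians lie between -0.061 and 0.086.

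Markers of the cell types that such a biopsy can hold are given beside these genes. Of 10 B cell markers, 6 were matched, and their summed level was 2.093 to 4.857 in CONT (median 3.737) and 3.023 to 5.084 in REST (median 3.644). In this list 4 genes had a higher mean in REST (median 0.13). The largest difference among those above background on all arrays was that of CD79A, 0.13 (standard error 0.21). POU2AF1, a B cell coactivator, had a higher mean in REST, but reached the background limit on 5 of 6 CONT arrays and is given no difference. MS4A1 was above the background limit on 4 REST arrays and no CONT array and is given no difference, and CR2 did not reach that limit on the 12 arrays. Of the other immune lists, 3 of 10 T cell markers had a higher mean in REST (median -0.12), led by CD3D (0.60), as had 4 of 7 neutrophil markers (median 0.19, TREM1 at 0.60), 4 of 9 macrophage markers (median -0.067, led by MSR1 at 1.12), 2 of 5 plasma cell markers (median -0.13, largest difference SDC1 at -0.38) and 2 of 8 general leukocyte markers (median -0.15, largest difference PTPRC at -0.34). CXCR1, of the neutrophil list, had a lower mean in REST, but reached the background limit on 5 of 6 REST arrays and is given no difference. With 1 cow left out, chosen after seeing the data, the median of each of these 6 immune lists turned its sign for at least 1 of the 12 cows. SDC1 was at -0.043 without CONT cow 0055 and at -0.698 without CONT cow 1024. PTPRC was at -0.138 without REST cow 1015 and at -0.581 without REST cow 1058.

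Of the tissue lists, all 7 endothelial markers had a higher mean in REST (median 0.37), and VWF, the von Willebrand factor, was 0.79 higher. This rested in large part on CONT cow 8027, in which the summed level of the list was 5.704, against 18.34 to 21.44 in the other CONT cows and 12.89 to 27.06 in REST. Without that cow the median was 0.059, 6 of the 7 were higher and VWF was at 0.50. A total of 5 of 7 fibroblast markers had a lower mean in REST (median -0.60), with LUM, the matrix proteoglycan lumican, at -0.84, COL1A1 at -0.72 and COL1A2 at -0.65. A higher mean in REST was found for 4 of 5 adipocyte markers (median 0.25), 6 of 8 epithelial markers (median 0.14, largest difference KRT18 at -0.49) and 2 of 8 myoepithelial markers (median -0.11, largest difference OXTR at -0.50), the last of which had a median of 0.105 without CONT cow 0055. The epithelial median was 0.043 without REST cow 1015. KRT18 was at -0.156 without REST cow 0049 and at -0.759 without REST cow 1018. Of the adipocyte markers FABP4, a fatty acid binding protein, passed the background limit on all arrays and no other did. Its difference was 1.21, and 0.59 without CONT cow 8027, whose summed adipocyte level was 7.467 against 55.19 to 163.7 in the other CONT cows. No marker passed an adjusted p of 0.05 (limma). The part of these cell types in the PLEKHA2 difference was not tested.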

How the data were processed

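Total RNA (100 ng) from about 50 mg of mammary tissue per cow was amplified, labeled with Cy3 and hybridized by the authors, who processed the scans with Agilent Feature Extraction (version 11.0.1.1, per the file headers). The deposited values are intensities of 45220 spots per array, corrected for background by that software and not normalized between arrays, and its calls of spots well above background were used as deposited. The series matrix was identical to these intensities (largest difference 0). The precision is limited by the number of arrays.

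Of the 43803 non-control spots, those with an outlier mark were set to missing (205 probes with a missing value), and log2 intensities minus the 75th percentile of the array were averaged per probe (43653 probes). A total of 26832 probes were named through RefSeq accessions without their version. The array annotation and the RefSeq table (ARS-UCD2.0) belong to different assemblies, and no positions are given. A total of 7063 probes were never well above background and stayed in the test. Correlations between arrays were 0.9323 to 0.9841.

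REST and CONT were compared for every probe with limma 3.58.1 (R 4.3.3, lmFit and eBayes, two-sided), with Westfall-Young p-values from 100 splits of the cows, Benjamini-Hochberg p-values beside them and a threshold of 0.05. The procedure was tested on simulated data. A gene was represented by its brightest probe on average. Correlations used numpy 2.4.6 and scipy 1.17.1, with 100000 permutations for 12 cows and all orders for 6. Figures were drawn with matplotlib 3.10.9. Alternatives were quantile normalization, normexp (offset 50, on median spot signals and local background), the series matrix, a filter on dim probes, outlier spots kept, slide as a block or within slides, an intensity trend, the mean over the probes of a gene and each cow left out. The leukocyte covariate, the omission of slide 1 and the relations with marker lists, with the 75th percentile held constant as one of their settings, were added after seeing the data.

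The members and the gene lists were chosen with earlier results of these data known. Genes named are every member and the 5 genes most like PLEKHA2. For each pathway list the genes with an unadjusted p under 0.05 (none), or otherwise the one with the largest difference, are named. For each marker list the gene with the largest difference is named. The largest difference was taken among genes above background on all arrays. POU2AF1 and CXCR1 had the largest difference of their lists without that limit. MS4A1, TREM1, COL1A1, COL1A2, INPP5J and the genes below background were named after their values were seen. Each label calls its sample a biological replicate, and p-values cover the spread between these cows.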

Additional observations from a re-analysis of the deposited data

Results flagged for a closer look

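CONT cow 0015 lay apart from the other CONT cows on the third INPP4A probe, at -6.64 on the log2 scale against -5.38 to -4.64 in the other 5, a gap larger than Dixon's critical value for 6 samples allows. The probe was not well above background on that array. This was 1 of 26 groups of 6 cows examined on the member probes, and chance gives about 1 in 20, or 1.3 groups. Without this cow the log2 difference of the probe was 0.086, and the cause was not tested.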

How the results depend on the processing

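No probe, member or listed gene had an adjusted p under 0.05 in any setting that was run. The PLEKHA2 difference was positive in all 21 alternatives (0.444 to 0.861), as were those of PLEKHA1 (0.064 to 0.243) and PIK3R1 (0.041 to 0.389). That of INPP5D stayed negative on its brightest probe (-0.283 to -0.038), within-slide values aside. The series matrix, dim-probe filter, kept outlier spots and intensity trend only repeated the main values (0.798, 0.158, 0.226 and -0.175). For PLEKHA2, the sign with slide as a block, or without single cows or slide 1, followed from groups that did not overlap. With the probes of a gene numbered by falling brightness, signs turned with normexp for PIK3CD probes 3 and 4 (-0.083, -0.057), INPP5D probe 2 (-0.039) and INPP4A probes 2 and 3 (-0.090, -0.026). They turned with slide as a block for INPP5D probe 2 (-0.010) and INPP4A probes 1 and 2 (0.047, -0.034). Without slide 1 they turned for PIK3CD probes 1, 2 and 4 (-0.211, -0.281, -0.666). With each cow left out, the ranges were -0.034 to 0.345, -0.127 to 0.265 and -0.129 to 0.502 for PIK3CD probes 1, 3 and 4, -0.16 to 0.351 for INPP5D probe 2, and -0.152 to 0.067 and -0.06 to 0.247 for INPP4A probes 1 and 2. With normexp, r of PLEKHA2 was 0.427 with PLEKHA1, -0.339 with PIK3CD, 0.034 with PIK3R1 and 0.375 with INPP4A. With each cow left out it was -0.357 to 0.005, -0.199 to 0.225, -0.454 to 0.239, -0.242 to 0.05 and -0.736 to -0.061 for PLEKHA1, PIK3CD, PIK3R1, INPP5D and INPP4A. Among the relations with markers that were not called, the sign turned with normexp for PLEKHA2 (-0.453) and INPP4A (-0.37) with leukocytes. It turned with the 75th percentile held constant for PIK3R1 (-0.018) and INPP4A (-0.154) with leukocytes, and for PLEKHA1 (-0.248), PLEKHA2 (-0.187) and INPP5D (0.041) with epithelium. PLEKHA2 ranged from -0.122 to 0.138 with leukocytes and from -0.094 to 0.72 with epithelium with each cow left out, and was called with the latter without REST cow 1018 (0.72). PIK3R1 was called with epithelium under quantile normalization (-0.68), with slide as a block (-0.675) and without REST cow 7043 (-0.787). The causes were not tested. Probes under an unadjusted p of 0.05 numbered 377 with normexp, 1761 with the leukocyte covariate and 825 to 1739 with each cow left out, against 1143. No paired analysis was possible because the labels number every sample as replicate 1 of 6 and the cows differ between diets. Of the 13 member probes, 7 were not well above background on all arrays.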
